A study of Homo sapiens with 8 samples.

Results

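Metallothioneins were read on 8 expression arrays of HuCCT1, an established human intrahepatic cholangiocarcinoma cell line, through every non-control probe that the array file names MT1A, MT1E, MT1F, MT1G, MT1H, MT1M, MT1X or MT2A. These 8 genes had 10 probes on 16 spots, of 34809 gene names with 42405 probes on 58717 spots in all. MT1H and MT1X had 2 probes each and the other genes 1 each. The members were chosen by name and not by their values, though with earlier results of these data known.

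The cells carried 1 of 4 short hairpin RNA vectors, and each vector had 2 single-colour arrays. The labels call shControl and shNontarget control, and shBEX2-1 and shBEX2-2 knockdown of BEX2, a gene that the study linked to dormancy of cancer stem cells. The study expressed the hairpins against BEX2 from a retroviral vector, calls the knockdown cells sublines of HuCCT1, and names luciferase as the target of the control hairpin, without saying which of the labelled control vectors that was. As printed in its methods, the target sequences of the BEX2 hairpins are reverse complements of each other over nearly their whole length, so that like values with both vectors are not given here as independent. The comparison asked which transcripts differ when BEX2 is lowered in these cells. Nothing in the labels says that both arrays of a vector hold RNA of separate cultures, so p-values measure only the spread between these arrays, which may be technical.

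Metallothioneins are small, cysteine-rich proteins that hold zinc and copper through the sulphur of their cysteines, and they also bind cadmium and react with oxidants. Their genes lie in a cluster on human chromosome 16 that arose by duplication, and the transcription factor MTF1, which senses free zinc, drives them through short metal response elements in their promoters, with a further contribution from glucocorticoids in some members. In the liver and in cancer cells they are known as a readout of metal load and stress, with MT2A commonly the most abundant isoform.

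The sequences of the probes decide what each value can be assigned to. Of the 10 probes, 3 held an open reading frame with 7 or 8 cysteine codons among 19 or 20 codons. Frames with a stop codon were not counted, so a probe across the end of a coding sequence would be missed. The 3 are shown whole because they overlap each other. Capitals mark runs of at least 20 bases that a probe shares with another of the 3.
MT1A A_23_P54840: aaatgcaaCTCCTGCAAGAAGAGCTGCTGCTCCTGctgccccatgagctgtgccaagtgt
MT1H A_33_P3315314: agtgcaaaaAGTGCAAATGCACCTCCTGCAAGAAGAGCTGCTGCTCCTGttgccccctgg
MT1X A_33_P3350056: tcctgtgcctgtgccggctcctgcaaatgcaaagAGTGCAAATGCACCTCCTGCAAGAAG

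The MT1H coding probe shared a run of 27 bases with the MT1A probe and a run of 26 bases with the MT1X coding probe. No probe of any other gene on the array shared a run of 20 bases with a member. In hg19, the build named by the array files, only the MT1X coding probe of these 3 lies on chromosome 16, at chr16:56717082-56717141 on the plus strand. The files place the MT1A probe at chr20:33805884-33805943 on the plus strand and the MT1H coding probe at chr1:237167555-237167614 on the minus strand. The RefSeq gene table has all 8 members on chromosome 16, the metallothionein pseudogene MT1P3 on chromosome 20, and MT1HL1 on chromosome 1. Signal of the probes named MT1A and MT1H therefore cannot be assigned to these genes alone.

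A second set of 3 probes, for MT1F, MT1H and MT1X, lines up base for base, with 41 of 60 positions alike in all 3. Their first 30 bases are shown because here the paralogs can be told apart, and capitals mark the 9 of these 30 positions at which the 3 are not all alike.
MT1F A_23_P15174: tgCcAggacaAcCTtTctCCcagatgTaaa
MT1H A_33_P3368313: tgTcGggacaGcCCtGctGTcagatgAaaa
MT1X A_33_P3236868: tgCcAggacaGcTGtGctCTcagatgTaaa

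The MT1X probe of this set lies at chr16:56717962-56718021, downstream of the MT1X coding probe, and the set is called 3′ below. The MT1F 3′ probe lies at chr16:56693077-56693136 and the MT1H 3′ probe at chr16:56704902-56704961. The probes of MT1E (chr16:56660853-56660912), MT1G (chr16:56700694-56700752), MT1M (chr16:56667810-56667869) and MT2A (chr16:56643332-56643391) shared no run of 20 bases with another member probe. Probes were compared with probes and not with the transcripts of the paralogs. Whether these signals belong to a single gene was therefore not tested.

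All levels below are log2 of the processed intensity minus the 75th percentile of the array, so that they follow a probe across arrays but do not rank genes. BEX2 itself was read first. Its probe read 71.0 and 55.7 intensity units on the shControl arrays, 115 and 48.8 on the shNontarget arrays, 11.9 and 11.1 on the shBEX2-1 arrays, and 20.4 and 26.0 on the shBEX2-2 arrays. The arms did not overlap, the probe was not well above background on either shBEX2-1 array, and the log2 fold change was -1.63 (SE 0.32, limma adjusted p = 0.0111, exact permutation p = 0.0286, the smallest that 4 against 4 arrays allow). The call was lost with normexp background correction, at -0.45 (limma adjusted p = 0.0765), and against the shNontarget arrays alone, at -1.83 (limma adjusted p = 0.0758). Of the biliary epithelial markers KRT7, KRT19, KRT8, KRT18, EPCAM and SOX9, all 6 were well above background on all 8 arrays. Of 12 markers of fibroblasts, leukocytes, endothelial cells and hepatocytes, 4 were well above background on all 8 arrays (COL1A1, LUM, CD14 and CDH5) and 4 on none (COL1A2, PECAM1, ALB and TTR), and their summed level ranged from 0.56 to 0.88 across control arrays and from 0.36 to 1.24 across knockdown arrays. The percentile used for scaling was 667 to 838 intensity units for control cells and 441 to 631 for knockdown cells, and the arms sat in different rows of 1 slide, so that row and arm cannot be told apart.

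Metallothionein transcripts were detected on every array and did not pass the test for a difference between BEX2-knockdown and control cells. Of the 10 probes, 9 were well above background on all 8 arrays and were tested, and limma called 0 of the 9 at an adjusted p under 0.05, against 13.7% of all 25108 tested probes. At an unadjusted p under 0.05 there was 1 of 9, the MT1X 3′ probe, beside 7120 of all 25108 probes. The methods' t-test after adjustment also called 0 of 9, beside 2774 of all 25108 probes. The median log2 fold change of the 9 probes was -0.08, with 3 above 0, beside a median of 0.03 over all tested probes. What moved most was 1 control array. The first shNontarget array read higher than each of the 7 other arrays for 9 of 9 metallothionein probes, whereas 22.4% of all probes were highest on it. The second shNontarget array read highest for 0 of the 9 and for 29.9% of all probes.

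**Figure D1:**
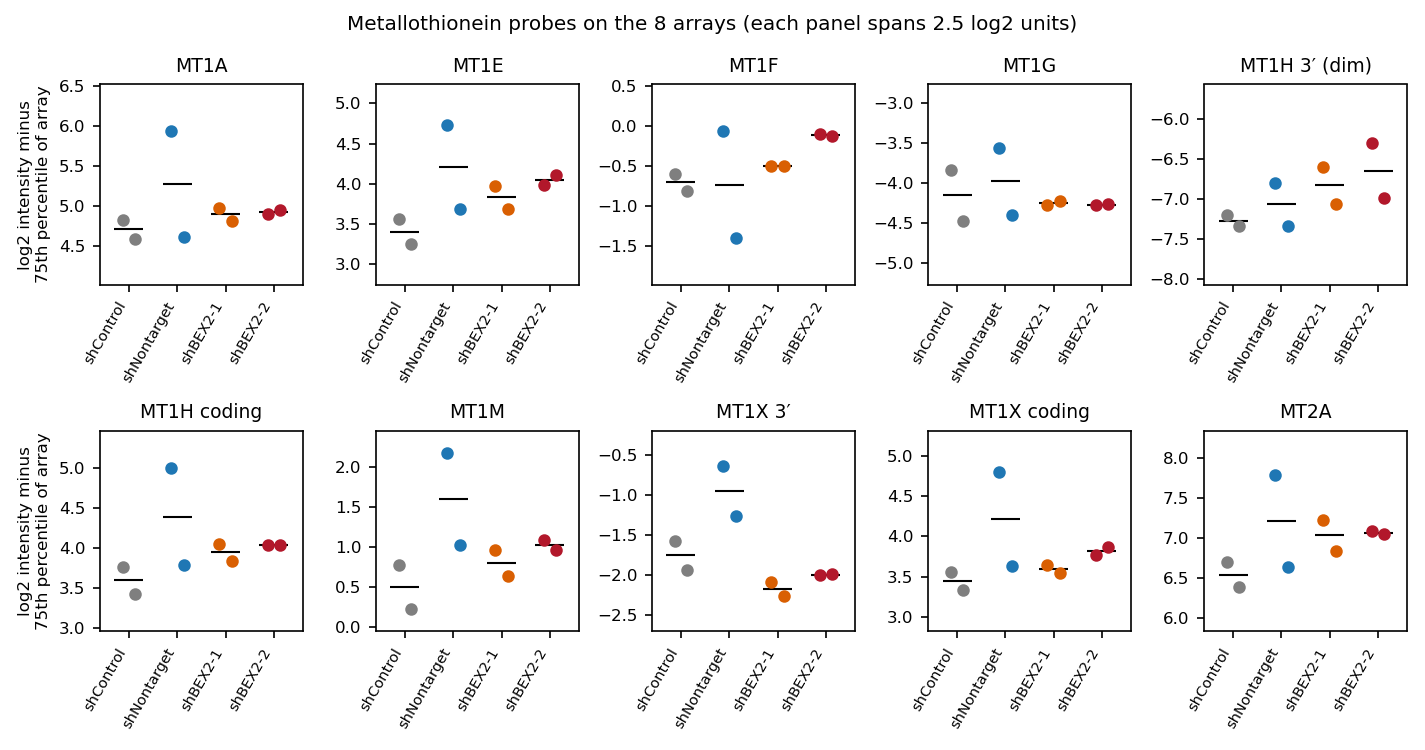
Normalized log2 level of the 10 metallothionein probes on the 8 arrays, with a panel for each probe, a point for each array and a line at the mean of the 2 arrays of a vector. The first shNontarget array is the highest point in the 9 panels of tested probes, for example 7.79 for MT2A against 6.39 to 7.23 elsewhere, and the knockdown arrays lie among the other control arrays or slightly above them, except for the MT1X 3′ probe, where they lie below.

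MT2A, the sole functional gene of the MT2 subfamily, read 6.70 and 6.39 on the shControl arrays, 7.79 and 6.64 on the shNontarget arrays, 7.23 and 6.84 on the shBEX2-1 arrays, and 7.09 and 7.05 on the shBEX2-2 arrays. All 4 knockdown arrays lay above 3 of the 4 control arrays and below the first shNontarget array. The log2 fold change was 0.17 (SE 0.29, 95% interval -0.48 to 0.83, n = 4 against 4 arrays, limma adjusted p = 0.746).

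The MT1 genes are the larger subfamily, and several of their probes followed the same order of arrays. MT1E read 3.55 and 3.24 with shControl, 4.73 and 3.68 with shNontarget, 3.97 and 3.68 with shBEX2-1, and 3.98 and 4.11 with shBEX2-2. Its knockdown arrays again lay above 3 control arrays, in the closest case by less than the last digit printed, and its log2 fold change was 0.13 (95% interval -0.52 to 0.79, limma adjusted p = 0.811). MT1M read 0.77 and 0.22 with shControl, 2.17 and 1.02 with shNontarget, 0.97 and 0.64 with shBEX2-1, and 1.09 and 0.96 with shBEX2-2. Here the arms overlapped also without the first shNontarget array, and the log2 fold change was -0.13 (95% interval -0.93 to 0.66, limma adjusted p = 0.846).

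The 3 coding probes that share sequence gave similar profiles. The probe named MT1A read 4.82 and 4.59 with shControl, 5.94 and 4.61 with shNontarget, 4.98 and 4.81 with shBEX2-1, and 4.90 and 4.94 with shBEX2-2. The coding probe named MT1H read 3.76 and 3.42 with shControl, 4.99 and 3.78 with shNontarget, 4.05 and 3.84 with shBEX2-1, and 4.03 and 4.04 with shBEX2-2. The MT1X coding probe read 3.55 and 3.33 with shControl, 4.80 and 3.63 with shNontarget, 3.65 and 3.55 with shBEX2-1, and 3.76 and 3.87 with shBEX2-2. In each of them the 2 shControl arrays and the second shNontarget array were close, the knockdown arrays lay near the upper end of these or above it, and the first shNontarget array stood apart above all others. Their log2 fold changes were -0.08 for MT1A, -0.00 for MT1H and -0.12 for MT1X, with 95% intervals of -0.72 to 0.56, -0.68 to 0.68 and -0.78 to 0.54.

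The MT1F, MT1G and MT1H 3′ probes behaved less alike. MT1F read -0.59 and -0.81 with shControl, -0.06 and -1.40 with shNontarget, -0.49 and -0.49 with shBEX2-1, and -0.10 and -0.12 with shBEX2-2. It had the highest log2 fold change of the 9 probes, 0.41 (SE 0.26, 95% interval -0.17 to 1.00, limma adjusted p = 0.345), or 0.19 without the second and 0.63 without the first shNontarget array, neither of which passed, and its shNontarget arrays were at once the highest and the lowest of the 8. MT1G read -3.84 and -4.48 with shControl, -3.57 and -4.40 with shNontarget, -4.27 and -4.23 with shBEX2-1, and -4.29 and -4.26 with shBEX2-2. These are intensities of 22.9 to 63.2 units, the knockdown arrays lay within the range of the controls, and the log2 fold change was -0.19 (95% interval -0.73 to 0.35, limma adjusted p = 0.658). No array had the MT1H 3′ probe well above background, so that it was left out of the main test. Without the filter on dim probes its log2 fold change was 0.43 (limma adjusted p = 0.382). Its 2 spots differed by up to 2.31 log2 units on 1 array. For the 5 tested probes with 2 spots, the spots of an array differed by at most 0.53 log2 units, in MT1G.

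The MT1X 3′ probe stood apart from the MT1X coding probe, whose arms overlapped. The 3′ probe read -1.58 and -1.94 with shControl, -0.65 and -1.27 with shNontarget, -2.09 and -2.26 with shBEX2-1, and -2.003 and -1.997 with shBEX2-2. All 4 knockdown arrays lay below all 4 control arrays, which 1 of the 9 tested member probes showed in either direction and 22.5% of all probes with a value on each array. The log2 fold change was -0.73 (SE 0.25, 95% interval -1.30 to -0.16), and the limma adjusted p of 0.0902 did not pass. It passed without the second shControl array, at -0.92 (limma adjusted p = 0.0494), and in a model with a mean for each of the 4 vectors, at -0.73 (limma adjusted p = 0.0429). It did not pass under the other alternatives that gave it a value, and its size was lower against the shControl arrays alone, at -0.33 (limma adjusted p = 0.113), with normexp, at -0.47 (limma adjusted p = 0.150), and without the first shNontarget array, at -0.49 (limma adjusted p = 0.0705). The highest limma adjusted p with 1 array left out was 0.199, without the second shBEX2-1 array.

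Within an array, the difference between the MT1X 3′ probe and the MT1X coding probe does not depend on how arrays are scaled. It was -5.13 and -5.27 log2 units with shControl, -5.45 and -4.89 with shNontarget, -5.73 and -5.81 with shBEX2-1, and -5.77 and -5.86 with shBEX2-2. The first shNontarget array, which was the highest in each of the 9 tested probes, lay on the side of the knockdown arrays here but above all 4 of them. The mean was -5.18 ± 0.24 (SD, n = 4) in control and -5.79 ± 0.06 (SD, n = 4) in knockdown cells, a difference of -0.61, or -0.31 with normexp background correction. This pair was set side by side after its values were seen, so the difference is a description with no test. It does not say which of the probes differed between the arms, and the coding probe shares sequence with the probe named MT1H.

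**Figure D2:**
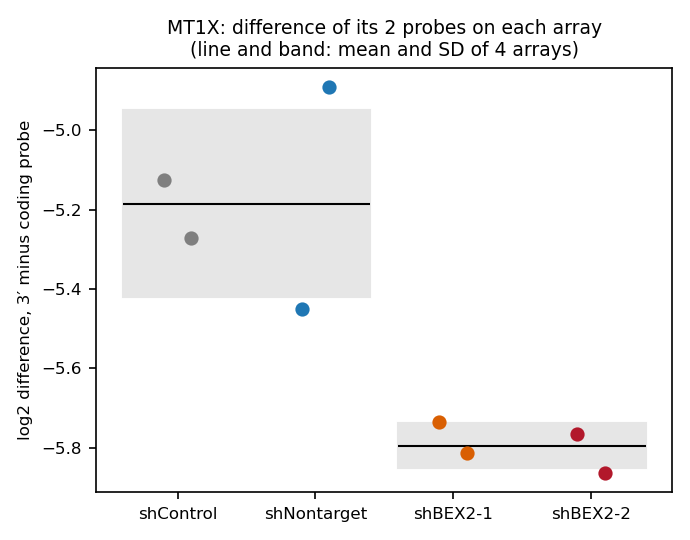
Log2 difference between the 3′ probe and the coding probe of MT1X on each of the 8 arrays, by vector, with a line and a grey band for the mean and SD of the 4 arrays of an arm. The knockdown arrays lie between -5.86 and -5.73 and the control arrays between -5.45 and -4.89.

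By vector, none of the comparisons of 1 vector called a metallothionein probe. With shBEX2-1 against both control vectors limma called 0 of 9, against 7.05% of all probes, with log2 fold changes from -0.82 for the MT1X 3′ probe to 0.22 for MT1F. With shBEX2-2 against both control vectors limma called 0 of 9, against 9.71% of all probes, with log2 fold changes from -0.64 for the MT1X 3′ probe to 0.61 for MT1F. At an unadjusted p under 0.05 each of these comparisons had 1 of the 9, beside 5820 of all 25108 probes with shBEX2-1 and 6079 with shBEX2-2. Both comparisons used the same control arrays.

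The BEX2-knockdown sublines were compared with each other directly. In shBEX2-2 against shBEX2-1, limma called 0 of 9, against 0.0119% of all probes. At an unadjusted p under 0.05 there were 0 of 9, beside 1795 of all 25108 probes. The log2 differences ran from -0.03 for MT1G to 0.38 for MT1F, and 8 of 9 were above 0. The differences between the control vectors were larger, but turned on the first shNontarget array. In shNontarget against shControl, limma called 0 of 9, against 0% of all probes. At an unadjusted p under 0.05 there were 2 of 9, beside 1867 of all 25108 probes. Yet 8 of 9 log2 differences were above 0, with a median of 0.77 and a highest value of 1.10 for MT1M. The exception was MT1F at -0.03, whose 2 shNontarget arrays lay on either side of the shControl arrays. Without the first shNontarget array the median difference was 0.18, with a lowest value of -0.70 for MT1F. Without the second it was 1.24, and either choice leaves that vector with 1 array.

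**Figure D3:**
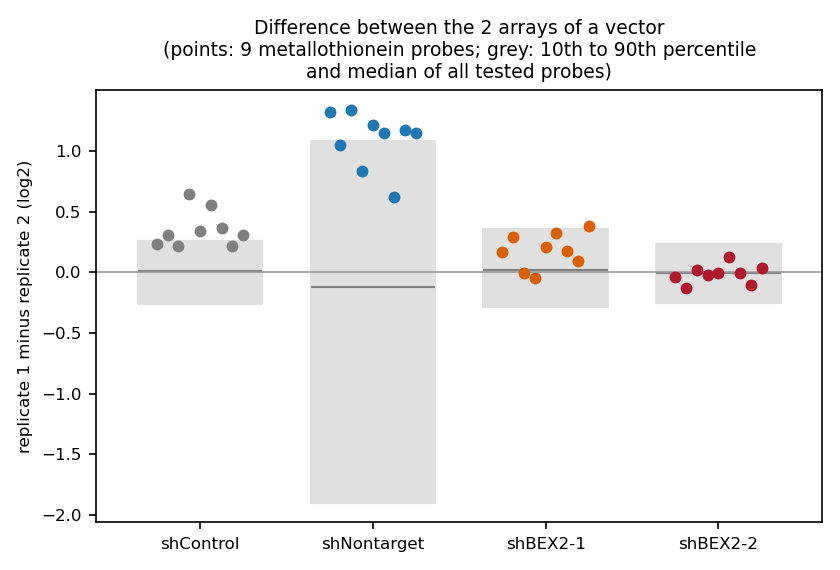
Log2 difference between the first and the second array of each vector for the 9 tested metallothionein probes (points), over the 10th to 90th percentile (grey) and the median (grey line) of all tested probes. In shNontarget all 9 points lie between 0.62 and 1.34, and in shBEX2-2 they lie between -0.13 and 0.13.

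The 2 arrays of a vector differed most in shNontarget. There, the first array exceeded the second by a median of 1.15 log2 units over the 9 probes, and by 0.62 in the smallest case, MT1X 3′. The typical absolute difference over all probes was 0.70 in that vector, beside 0.12, 0.15 and 0.11 in shControl, shBEX2-1 and shBEX2-2, and the middle of all probes lay at -0.12, with 6 of the 9 metallothionein probes above the 90th percentile of all probes, 1.08. In shControl, too, the first array was higher for 9 of 9 probes, by a median of 0.31, and 6 of 9 were above the 90th percentile of all probes, 0.26. In shBEX2-1 it was higher for 7 of 9 with a median of 0.18, and in shBEX2-2 for 3 of 9 with a median of -0.01. The first shNontarget array also had the lowest share of spots well above background, 59.8%, beside 60.8% to 64.6% on the other arrays. It had the highest share of surrogate intensities, 25.9%, beside 19.9% to 22.5%. The second shNontarget array lay at the opposite end of both shares, at 64.6% and 19.9%. The part of these shares in the metallothionein values was not tested. The names of the deposited files also give the first arrays a different day from the second arrays, while the labels name no day. What those days refer to is not stated, and all 8 arrays lay on 1 slide with 1 scan date. Whether the gaps follow the day was not tested. Among the first arrays of the 4 vectors alone, 1 of 9 log2 fold changes of BEX2-knockdown over control cells was above 0, with a median of -0.44, and among the second arrays 8 of 9 were, with a median of 0.27. The MT1X 3′ probe was below 0 in both, at -0.93 and -0.53, and these values, added after the data were seen, rest on 2 against 2 arrays with no test.

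The direction of most metallothionein probes turned on which control arrays were used. Against the 2 shControl arrays alone, 7 of 9 log2 fold changes were above 0 with a median of 0.40, and limma called 3 of 9, all higher in BEX2-knockdown cells, against 33.6% of all probes. They were MT1E at 0.54 (adjusted p = 0.0221), MT2A at 0.51 (adjusted p = 0.0256) and the MT1H coding probe at 0.40 (adjusted p = 0.0356). Against the 2 shNontarget arrays alone, 1 of 9 was above 0 with a median of -0.37. There limma called 0 of 9, against 1.77% of all probes. At an unadjusted p under 0.05 there was 1 of 9, beside 4835 of all 25108 probes. MT2A was then at -0.16 and MT1E at -0.27.

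Without the first shNontarget array, 7 of 9 were above 0 with a median of 0.24, and limma called 1 of 9, MT2A at 0.48 (adjusted p = 0.0466), against 23.4% of all probes. The knockdown arrays then lay outside the range of the 3 control arrays for 5 of 9 probes, higher for MT1E, MT1F, the MT1H coding probe and MT2A and lower for the MT1X 3′ probe, where 37.3% of all probes did so. The MT1X 3′ probe was below 0 and MT1F above 0 in each of these choices.

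**Figure D4:**
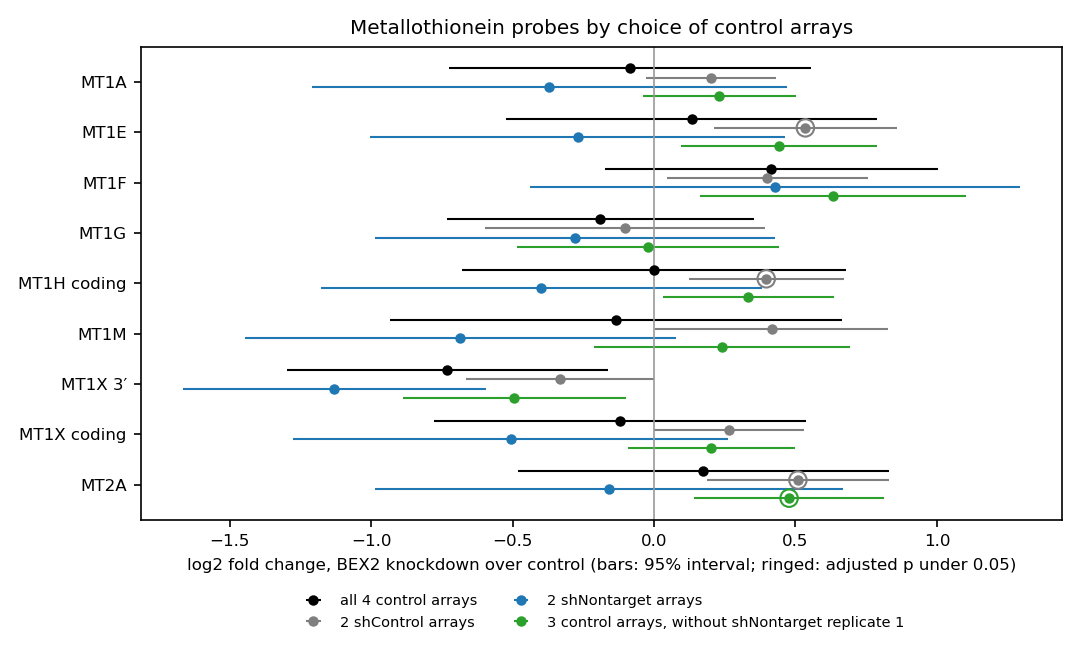
Log2 fold change of BEX2-knockdown over control cells with 95% intervals for the 9 tested metallothionein probes, against all 4 control arrays (black), the 2 shControl arrays (grey), the 2 shNontarget arrays (blue) and the 3 arrays without the first shNontarget array (green), with a ring where the limma adjusted p was under 0.05. MT2A moves from 0.51 against shControl to -0.16 against shNontarget, whereas the MT1X 3′ probe stays below 0.

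Over the 8 arrays the 9 probes correlated with a median Pearson r of 0.76 over 36 pairs, and without the first shNontarget array with a median of 0.58. Arrays share scaling and labelling across probes, so these are descriptions. The closest pair on 8 arrays was the overlapping coding probes of MT1H and MT1X at 0.98, and the MT1H coding probe stood at 0.97 with MT1E, with which it shares no long run. MT1F and MT1X 3′, from the set that lines up base for base, were the least alike at -0.06, and at -0.73 without the first shNontarget array.

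Outside the 8 genes, the profile most like the mean of the 9 probes over the 8 arrays was that of CIB1, which encodes a calcium- and integrin-binding protein, with a Pearson r of 0.975. It was followed by KRTAP3-3, a keratin-associated protein gene, at 0.974, C16orf91 at 0.968, SORBS3, which encodes the adhesion protein vinexin, at 0.968, and VPS29, a subunit of the retromer, at 0.964. Without the first shNontarget array these values were 0.919, 0.853, 0.827, 0.827 and 0.834, and their ranks fell from the first 5 to between 14 and 174. Other metallothionein loci came close behind. MT1L, a transcribed pseudogene of the cluster, ranked 7th with 0.962, and MT1B ranked 19th with 0.945. Both read highest on the first shNontarget array, MT1L at 5.65 against 4.13 to 4.90 elsewhere and MT1B at 5.20 against 3.74 to 4.52.

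Of 10 other metallothionein genes and pseudogenes, 3 had a tested probe. In BEX2-knockdown against control cells limma called 0 of these 3, beside 13.7% of all probes. MT1B was at 0.16, MT1L at 0.12 and MT3, the growth inhibitory isoform best known from brain, at 0.05 on the log2 fold change scale. Unlike its relatives, MT3 read 1.30 on the first shNontarget array, below its range of 1.39 to 1.58 on the other arrays.

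The regulator of the family did not pass the test either. MTF1, the zinc-sensing activator of metallothionein genes, read 0.06 and 0.02 with shControl, -0.32 and 0.12 with shNontarget, -0.17 and -0.19 with shBEX2-1, and -0.17 and -0.26 with shBEX2-2. Its level was lowest on the first shNontarget array, where the metallothioneins were highest, and its log2 fold change was -0.17 (95% interval -0.46 to 0.12, limma adjusted p = 0.436). Of 11 genes of the heavy metal and heat shock response, MTF1 among them, all were tested. Here limma called 0, beside 13.7% of all probes, and the median log2 fold change was 0.02. In shBEX2-2 against both control vectors, the inducible chaperone genes HSPA1A and HSPA1B, near-identical copies whose signals may be shared and which are named after their values were seen, were called at 0.63 (limma adjusted p = 0.0407) and 0.74 (limma adjusted p = 0.0139). Of all probes, 9.71% were called in that comparison. With both knockdown vectors pooled HSPA1A and HSPA1B were at 0.28 and 0.53 (limma adjusted p = 0.436 and 0.0671), and the arms did not overlap for HSPA1B.

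SLC30A1, the plasma membrane zinc exporter and a classical MTF1 target, fell in the BEX2-knockdown cells while the metallothioneins did not pass. It read -0.27 and -0.30 with shControl, -0.08 and -0.09 with shNontarget, -0.69 and -0.73 with shBEX2-1, and -0.69 and -0.83 with shBEX2-2. The arms did not overlap, the 2 shNontarget arrays were alike, and the log2 fold change was -0.55 (SE 0.12, limma adjusted p = 0.0151), or -0.52 in shBEX2-1 and -0.57 in shBEX2-2 against both control vectors. Of 7 tested zinc exporters of 10, limma called 2, both lower, beside 13.7% of all probes, and the median was -0.15. The other was SLC30A7, a transporter into the Golgi, at -0.64 (limma adjusted p = 0.0226), whose second tested probe stood at 0.27 and so pointed the other way.

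Of 12 tested zinc importers of 14, limma called 1, which rose, a share below the 13.7% of all probes. This was SLC39A8, an importer of zinc and manganese, at 0.80 (SE 0.20, limma adjusted p = 0.0311). It read 1.13 and 1.10 with shControl, 1.29 and 0.32 with shNontarget, 1.76 and 1.70 with shBEX2-1, and 1.80 and 1.76 with shBEX2-2, without overlap of the arms. Over the importers the median log2 fold change was 0.32, and 9 of 12 were above 0. Of the 10 genes of copper handling, all tested and with MT3 counted here again, limma called 1, also a share below that of all probes. This was COX17, the copper chaperone of cytochrome c oxidase, which rose by 1.09 (SE 0.30, limma adjusted p = 0.0413), although its first shNontarget array, at 3.89, lay above the lowest knockdown array at 3.88. Leaving out each array in turn, SLC30A7, SLC39A8 and COX17 kept their call only without either shNontarget array, with limma adjusted p up to 0.0832, 0.0937 and 0.118 otherwise, and SLC30A1 lost its call without either shBEX2-2 array, with adjusted p up to 0.0579. Against the shNontarget arrays alone none of these 4 genes was called (limma adjusted p from 0.0832 for SLC30A1 to 0.254 for COX17). With the median as scale SLC30A1, SLC39A8 and COX17 lost their call (limma adjusted p = 0.0640, 0.0841 and 0.0910). SLC39A8 and COX17 also lost it in the 4-vector model and in the methods' t-test, and COX17 without the filter on dim probes.

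**Figure D5:**
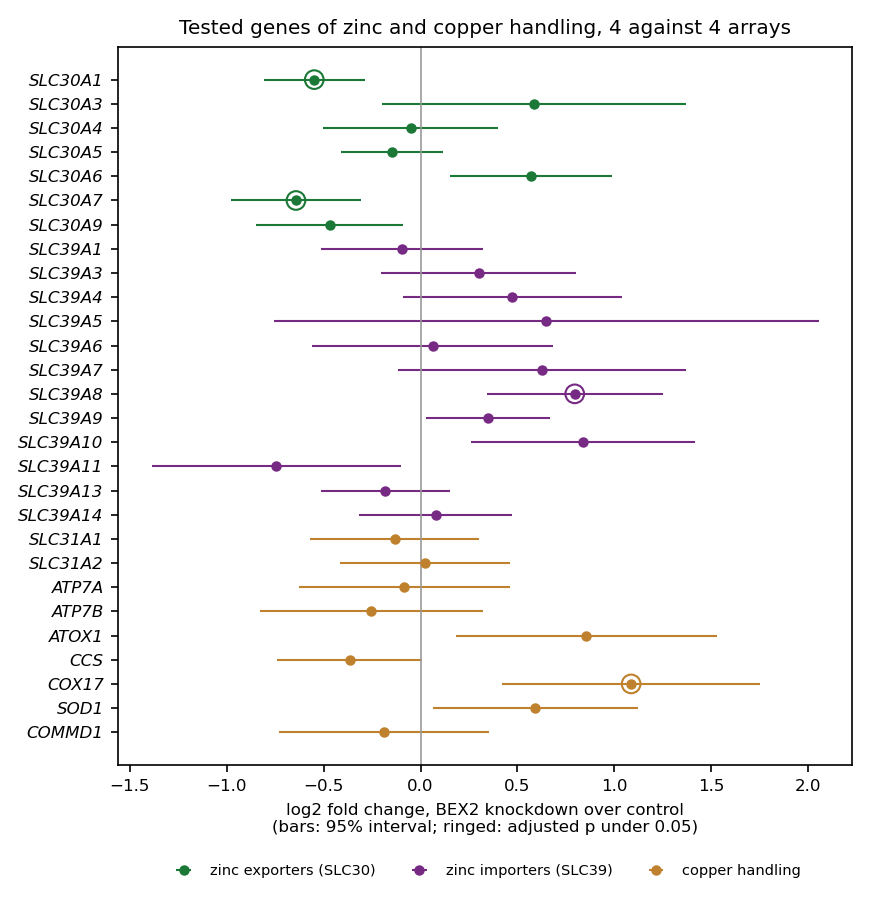
Log2 fold change of BEX2-knockdown over control cells with 95% intervals for the tested genes of zinc export, zinc import and copper handling, 4 against 4 arrays, with a ring where the limma adjusted p was under 0.05. MT3, which is also in the copper list, is not shown. SLC30A1 at -0.55 and SLC30A7 at -0.64 lie below 0, and SLC39A8 at 0.80 and COX17 at 1.09 lie above it.

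A list of the glucocorticoid receptor and its targets was read because glucocorticoids can induce some metallothioneins. All of its 11 genes, which include the receptor gene NR3C1 as well as HSD11B1 and HSD11B2, were tested. Of these genes limma called 2, in opposite directions, a share near the 13.7% of all probes. FKBP5, a co-chaperone of the glucocorticoid receptor, rose by 1.57 (SE 0.19, limma adjusted p = 0.00177), from -3.87, -3.94, -4.21 and -4.55 on the control arrays to -2.68, -2.67, -2.45 and -2.49 on the knockdown arrays. TSC22D3, the glucocorticoid-induced leucine zipper, fell by 1.02 (SE 0.17, limma adjusted p = 0.00641), from 0.74, 0.66, 0.82 and 0.63 to 0.02, -0.06, -0.57 and -0.63. Against the shNontarget arrays alone TSC22D3 stood at -1.03 but was not called (limma adjusted p = 0.0837). On the first shNontarget array, FKBP5 lay within the range of the other control arrays and TSC22D3 lay just above it.

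Promoter sequence was at hand for MT2A, MT1X and MT1H of the 8 genes. It is shown because metal response elements are the shared control of the family, from RefSeq in GRCh38.p14 as the last 150 bases before the start on the plus strand of chromosome 16. Capitals mark matches to the core of a metal response element, TGCACNC or TGCGCNC, on either strand.
MT2A (chr16:56608434-56608583): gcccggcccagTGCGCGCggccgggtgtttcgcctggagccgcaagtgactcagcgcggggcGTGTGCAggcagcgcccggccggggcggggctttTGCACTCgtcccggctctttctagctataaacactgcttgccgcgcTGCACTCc
MT1X (chr16:56682320-56682469): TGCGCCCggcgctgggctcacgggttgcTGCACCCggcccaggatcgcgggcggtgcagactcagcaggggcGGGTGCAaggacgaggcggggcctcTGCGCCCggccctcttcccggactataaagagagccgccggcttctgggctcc
MT1H (chr16:56669664-56669813): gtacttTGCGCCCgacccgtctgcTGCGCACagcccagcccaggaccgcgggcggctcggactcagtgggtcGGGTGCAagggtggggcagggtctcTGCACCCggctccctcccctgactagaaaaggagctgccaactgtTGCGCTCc

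In the full window of 300 bases, from 250 before to 50 after the start, MT2A and MT1H had 8 matches each and MT1X had 4. Of all 35116 promoters of the same length 29.6% held at least 1 match, 0.601% held as many as MT1X, and 0.0199% held as many as MT2A and MT1H. The SLC30A1 window had 2 matches, a count that 8.60% of promoters reached. Overlapping matches were counted separately, and a match is a string of letters and not a bound site.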

How the data were processed

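RNA of HuCCT1 cells was labelled with Cy3 and hybridized by the authors to Agilent arrays of design 028004, read with Agilent Feature Extraction 10.7.3.1. Per the file headers, the software subtracted background and a spatial trend from each deposited intensity and put a surrogate in place of low ones, without scaling arrays to each other. Intensities in the deposited series table differ from these by at most 0.497%, and 0 value columns were left unmapped.

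Control spots were dropped and outlier spots (3 to 15 per array) were set missing. The log2 intensity minus the 75th percentile of each array was averaged over the spots of a probe, and 25108 probes were tested, those detected well above background on 4 or more of the 8 arrays. Probes were the unit, since paralogs are alike in sequence. No spot was saturated. Precision is limited by how few arrays there are.

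BEX2 knockdown was compared with control by lmFit and eBayes with a trend (limma 3.58.1, statmod 1.5.0, R 4.3.3) and Benjamini-Hochberg adjustment over all tested probes, calling adjusted p under 0.05. A model of the 4 vectors gave the other comparisons. Single values were compared by a two-sided exact permutation test over 70 relabellings. Python 3.11.15, numpy 2.4.6, pandas 2.3.3, scipy 1.17.1 and matplotlib 3.10.9 were used, and the test was checked on simulated data. The study's rank product was not run, because it resamples over genes within arrays, and the study's methods give no threshold for it.

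Members and the 6 gene lists were chosen with earlier results of these data known. Named genes are BEX2, every member probe, MTF1, SLC30A1, up to 3 called genes of each list with the highest absolute fold change, and the 5 genes whose profile is most like the mean of the member probes. A gene outside the members is read by its tested probe with the highest mean. MT1B, MT1L, MT3 and the markers are added as context. Alternatives covered normalization, background correction, the deposited table, the filter, 1 probe per gene, blocks, the model, the control vectors, each array left out and the methods' t-test.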

Additional observations from a re-analysis of the deposited data

Results flagged for a closer look

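Over 36 groups of 4 arrays (the members, BEX2, MTF1, SLC30A1 and the called genes of the lists, in each arm), 2 groups held an array far from the other 3, measured as its gap to the nearest array over the whole range, and chance gives about 1 in 20 groups. For the MT1H coding probe, the second shBEX2-1 array read 3.84 against 4.03 to 4.05 on the other knockdown arrays, a gap of 0.941 of the range. For SLC30A7, the first shBEX2-2 array read -0.61 against -0.39 to -0.35, a gap of 0.857 of the range. The first shNontarget array did not pass this measure for any metallothionein probe, though it read highest for 9 of 9 tested ones. For MT1A it read 5.94 against 4.59 to 4.82 on the other control arrays, a gap close to the cutoff.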

How the results depend on the processing

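In BEX2 knockdown against control, the count of 0 called metallothionein probes rose to 1 in the 4-vector model (MT1X 3′) and to 3 with only shControl as control, and ranged from 0 to 1 when arrays were left out in turn. It remained 0 under the other alternatives. With only shControl as control, shBEX2-1 and shBEX2-2 against it called 3 and 6 of the 9, beside 10883 and 11031 of all 25108 probes. Leaving out arrays gave 0 to 5 for shBEX2-1, 0 to 6 for shBEX2-2, 0 to 8 for shNontarget against shControl, and 0 to 1 for shBEX2-2 against shBEX2-1. Where these 4 comparisons had metallothionein calls, the fit also called far more of all probes than the main fit did. All calls of these 4 comparisons came without 1 of the shNontarget arrays. Without the first, shBEX2-2 had 5 higher and 1 lower, and without the second, 1 higher and 3 lower. Those fits take the lone shNontarget array to vary like the others, and called 11103 and 11385 of all probes in shNontarget against shControl, where both arrays gave 0.

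Signs of probes uncalled in the main test turned as follows, and of these MT1H coding was called with only shControl as control. With only shControl as control, MT1A was at 0.20, MT1H coding at 0.40, MT1M at 0.42 and MT1X coding at 0.26, and with only shNontarget, MT1E was at -0.27 and MT2A at -0.16. MT1G was at 0.18 with normexp, and MT1H coding at 0.019 with the median as scale and 0.0015 with the deposited table. Over left-out arrays MT1A ranged from -0.22 to 0.23, MT1E from -0.052 to 0.44, MT1H coding from -0.19 to 0.33, MT1M from -0.41 to 0.24 and MT1X coding from -0.29 to 0.20. The MT1X probe difference was -0.31 with normexp and from -0.70 to -0.51 over left-out arrays. MT1F ranged from 0.19 to 0.63 and the MT1X 3′ probe from -0.92 to -0.49 over left-out arrays. Among the first arrays of each vector, MT1E was at -0.17 and MT2A at -0.085, and among the second arrays, MT1A at 0.27, MT1G at 0.20, MT1H coding at 0.34, MT1M at 0.18 and MT1X coding at 0.23. The cause was not tested.

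With the replicate number as a block, 0 metallothionein probes were called in each comparison. Deviations of same-numbered arrays correlated from -0.07 to 0.24, above 0.1 in 5 of 6 pairs of vectors but not in all, and the labels name no shared day, so the numbers were not taken as pairs. All-probe calls of 3433 became 8436 with only shControl, 445 with only shNontarget, and 1583 to 5884 without 1 array. BEX2 lost its call with normexp (-0.45) and with only shNontarget (-1.83).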
